A study of Homo sapiens with 2 samples.

Results

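Chromosome 11 carried 645 of the 10342 peaks in a brachyury ChIP-seq list from MDA-MB-231 cells. Members were taken by position alone, as every peak on chromosome 11, and each peak was placed by its midpoint in 1 of 135 windows of 1 Mb. Within the chromosome, 3 segments were described in depth. A gene-rich segment ran from 60 to 72 Mb and held 44 peaks. A gene-poor segment on the long arm ran from 78 to 102 Mb and held 153 peaks. A gene-poor segment on the short arm ran from 20 to 43 Mb and held 121 peaks. The remaining 327 peaks lay in the other 76 windows.

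The cells were wild-type MDA-MB-231, a widely used human breast cancer line in which the study described brachyury as constitutively overexpressed, with no treatment or knockdown in this experiment. A ChIP library made with antibodies against brachyury was compared with an input library, DNA from the same line that was not immunoprecipitated. The label of the first library names only the cell line, and it was taken as the ChIP library because the list is named as immunoprecipitation against input. There was 1 library of each kind, so no replicate error could be measured, and the number of reads behind the list is unknown. Positions are given in hg19 (GRCh37), the build that the processing notes of the submitters name.

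Brachyury is a T-box transcription factor that directs mesoderm and notochord formation in the embryo and has been linked to epithelial-mesenchymal transition in carcinoma. Human chromosomes alternate between GC-rich, early replicating stretches packed with short genes and AT-rich, late replicating stretches with few, often very long, genes. Chromosome 11 holds clear examples of both. The gene-rich segment covers bands around 11q13, with CCND1 (cyclin D1, which drives entry into S phase), MEN1 (the tumour suppressor menin), RELA (an NF-kappaB subunit), FGF19 (a growth factor) and the nuclear long noncoding RNAs MALAT1 and NEAT1. The long arm gene-poor segment holds long neural genes such as DLG2 (a synaptic scaffold), GRM5 (a glutamate receptor), TENM4 and CNTN5 (neural adhesion proteins). The short arm gene-poor segment holds PAX6 and WT1 (developmental transcription factors), CD44 (the hyaluronan receptor), BDNF (a neurotrophin) and LRRC4C (a synaptic adhesion protein).

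The naming of the segments was checked by gene order in RefSeq, since an annotation in hg19 was not used here. From MS4A1 to NUMA1, genes near the ends of the gene-rich segment, there were 293 protein-coding genes. From TENM4 to YAP1, on the long arm gene-poor segment, there were 82, and from NELL1 to LRRC4C, on the short arm gene-poor segment, there were 64. Divided by the length of each segment, these came to 24.4, 3.42 and 2.78 protein-coding genes per Mb. Genes of a segment beyond its named pair were not counted, so these values are approximate and may be too low. Peaks followed another order, since the segment with the most genes per Mb held the fewest peaks per Mb. Between the gene-poor segments, the long arm one had more of both, although their peak densities could not be told apart. Genes per Mb were not computed for the rest of the chromosome, so no general relation of genes to peaks is read from this. No gene was assigned to a single peak.

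The gene-rich segment had the lowest peak density of the 3. It carried 3.67 peaks per Mb (exact Poisson 95% interval 2.66 to 4.92), close to the 3.54 per Mb of the whole list. For the list, chromosomes were measured between their outermost peaks. These spans include long intervals without a peak, such as that around the centromere of chromosome 11, which lower the density of the list. The long arm gene-poor segment carried 6.38 peaks per Mb (95% interval 5.40 to 7.47) and the short arm gene-poor segment 5.26 per Mb (95% interval 4.37 to 6.29). Density in the gene-rich segment was thus 0.575 times that of the long arm gene-poor segment (exact conditional 95% interval 0.402 to 0.809) and 0.697 times that of the short arm gene-poor segment (95% interval 0.482 to 0.992). The second interval ended just below 1, and it reached 1.15 when 2 Mb were trimmed from each end of the segments. The short arm and long arm gene-poor segments could not be told apart by density, with a ratio of 0.825 (95% interval 0.645 to 1.05). These and all later intervals cover counting error only, as if peaks were independent of each other. They do not allow for the choice of the segments and limits, which was made with earlier results of these data known.

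**Figure D1:**
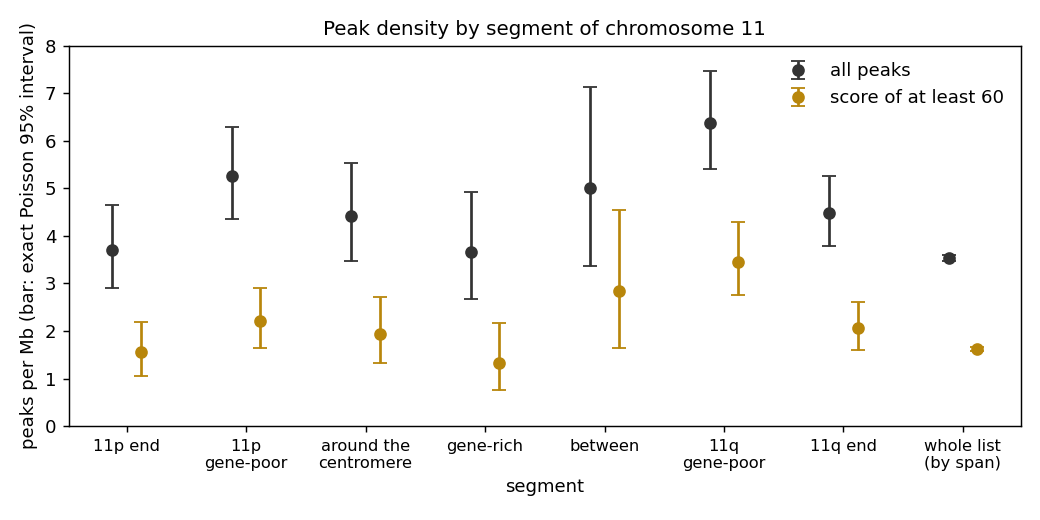
Peaks per Mb (vertical axis) in 7 consecutive segments of chromosome 11 and in the whole list, for all peaks (dark points) and for peaks with a score of at least 60 (yellow points); bars are exact Poisson 95% intervals. The long arm gene-poor segment stood highest at 6.38 peaks per Mb, and the gene-rich segment, at 3.67, lay next to the short arm end, at 3.70.

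Against the other 76 windows of the chromosome, the long arm gene-poor segment was the one that stood apart. The rest of chromosome 11 carried 4.30 peaks per Mb (95% interval 3.85 to 4.80). The long arm gene-poor segment exceeded it by a ratio of 1.48 (95% interval 1.21 to 1.80). The ratio was 1.22 for the short arm gene-poor segment (95% interval 0.984 to 1.51) and 0.852 for the gene-rich segment (95% interval 0.607 to 1.17), and both intervals included 1. Outside the 3 segments, density was 3.70 per Mb in the first 20 Mb of the short arm, 4.41 from 43 to 60 Mb, 5.0 from 72 to 78 Mb and 4.48 from 102 Mb to the end of the long arm. The stretch from 43 to 60 Mb, and so the other 76 windows, includes the 3 windows of the chromosome without a peak. These lower both densities and raise each ratio to the rest of the chromosome. The long arm gene-poor segment alone held 23.7% of the peaks of the chromosome on 17.8% of its windows, whereas the gene-rich segment held 6.82% of the peaks on 8.89% of the windows.

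Counts of single windows were examined next, to see whether a few windows made the difference. In the gene-rich segment the 12 windows from 60 Mb onwards held 3, 3, 3, 4, 1, 4, 4, 1, 6, 9, 2 and 4 peaks, a mean of 3.67 ± 2.19 (SD over 12 windows). Of these, 10 held 4 peaks or fewer. The 24 windows of the long arm gene-poor segment held 1 to 10 peaks, with a median of 7 and a mean of 6.38 ± 2.12 (SD over 24 windows). The 23 windows of the short arm gene-poor segment held 1 to 11, with a median of 5 and a mean of 5.26 ± 2.34 (SD over 23 windows). The ranges of the 3 segments overlapped, and the difference between the means of the gene-rich and the long arm gene-poor windows, -2.71 peaks, was somewhat larger than either SD. That between the gene-rich and the short arm gene-poor windows, -1.59 peaks, was smaller than either SD.

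**Figure D2:**
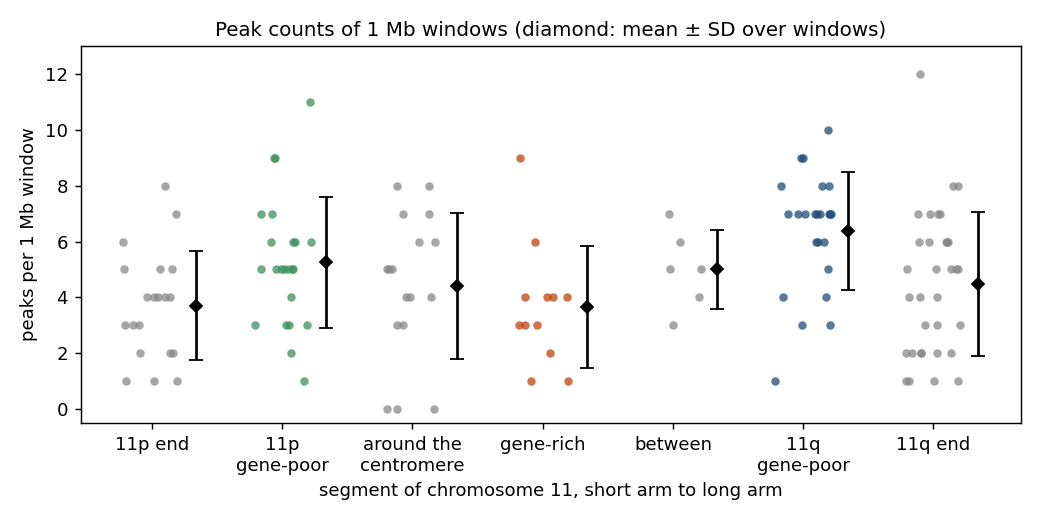
Number of peaks in each 1 Mb window (points; vertical axis) for 7 consecutive segments of chromosome 11, with the mean ± SD over windows as diamonds and bars. Gene-rich windows lay mostly at 4 peaks or fewer, 1 of them reaching 9, while long arm gene-poor windows clustered around 7.

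By window, 11 of the 12 gene-rich windows held fewer peaks than the median long arm gene-poor window, and 10 of 12 (83.3%) held fewer than the median short arm gene-poor window. In windows of 0.5 Mb the second share was 45.8%. Windows equal to the median were not counted as below it, so this lower share does not show a change of direction. At least 7 peaks were found in 1 of 12 gene-rich windows, in 15 of 24 long arm gene-poor windows and in 5 of 23 short arm gene-poor windows. Over the whole list, 13.9% of 2895 windows reached 7 peaks. On chromosome 11 as a whole, which carried 4.78 peaks per Mb, 35 of 135 windows (25.9%) did, a larger share than in the short arm gene-poor segment (21.7%). No window in the 3 segments was empty. The variance to mean ratio of window counts was 1.31 in the gene-rich, 0.707 in the long arm gene-poor and 1.04 in the short arm gene-poor segment. A Poisson count has a ratio of 1. No interval was computed for these ratios, so no difference in evenness is read from them.

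The edges of the segments did not coincide with sharp steps. The first and last gene-rich windows held 3 and 4 peaks, and the windows just outside held 5 each. At the long arm gene-poor segment, the first and last windows held 7 peaks each, and those just outside held 5 each. At the short arm gene-poor segment, the first and last windows held 3 and 5, and those just outside held 4 and 7.

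The fullest gene-rich windows were those from 69 to 70 Mb, with 9 peaks, and from 68 to 69 Mb, with 6. Together these 15 peaks made 34.1% of the segment. The 9 peaks of the first lay between 69043377 and 69873313, with scores from 50.45 to 91.84. Without that window the density of the gene-rich segment fell to 3.18 per Mb (95% interval 2.22 to 4.43), and without both it was 2.90 per Mb (95% interval 1.94 to 4.16). Next came the windows starting at 63, 65, 66 and 71 Mb, with 4 peaks each. The sparsest gene-rich windows, starting at 64 and 67 Mb, held 1 peak each.

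In the long arm gene-poor segment the fullest window started at 90 Mb and held 10 peaks, followed by those starting at 79 and 81 Mb with 9 each. Its sparsest window, from 92 to 93 Mb, held 1 peak. In the short arm gene-poor segment the fullest window started at 27 Mb and held 11 peaks, followed by those starting at 25 and 39 Mb with 9 each. Its sparsest window, from 37 to 38 Mb, held 1 peak. The 3 fullest windows of each gene-poor segment were not next to each other, although the 6 windows from 81 to 87 Mb all held at least 7 peaks. The proximal 12 windows of the long arm gene-poor segment carried 7.08 peaks per Mb (95% interval 5.66 to 8.76) and the distal 12 carried 5.67 (95% interval 4.40 to 7.18). The corresponding values in the gene-rich segment were 3.0 (95% interval 1.78 to 4.74) and 4.33 per Mb (95% interval 2.83 to 6.35), and these intervals overlapped as well.

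Median spacing between the midpoints of neighbouring peaks followed density. The median distance was 228 kb in the gene-rich segment, 102 kb in the long arm gene-poor segment and 152 kb in the short arm gene-poor segment. The longest was 1002 kb, 859 kb and 864 kb, respectively. The share of neighbours with less than 10 kb between them did not follow density. It was 5 of 43 gene-rich pairs (11.6%), 10 of 152 long arm gene-poor pairs (6.58%) and 6 of 120 short arm gene-poor pairs (5.0%). On the whole chromosome it was 39 of 644 pairs (6.06%), and the gene-rich share rests on only 5 pairs. Peaks covered 3.82 kb per Mb in the gene-rich segment, against 6.37 and 5.23 kb per Mb in the long arm and short arm gene-poor segments.

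Scores were compared between the segments. Each deposited score was taken to be the caller's p-value written as -10 x log10, so that higher is stronger, and no score in the list was under 50. The gene-rich peaks had the lowest median score of the 3 segments, although the intervals of both differences included 0. Gene-rich scores ran from 50.03 to 99.10 with a median of 55.7 (order-statistic 95% interval 54.2 to 60.6). Long arm gene-poor peaks ran from 50.16 to 180.43 with a median of 60.7 (95% interval 59.0 to 62.5), and short arm gene-poor peaks from 50.09 to 142.87 with a median of 57.2 (95% interval 55.5 to 60.7). The gene-rich median was lower than the long arm gene-poor median by a difference of -5.07 (95% interval -7.37 to 0.187), and the interval just included 0. It differed by -1.53 from the short arm gene-poor median (95% interval -5.30 to 3.71). The short arm gene-poor median differed by -3.54 from the long arm gene-poor median (95% interval -6.01 to 0.369).

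**Figure D3:**
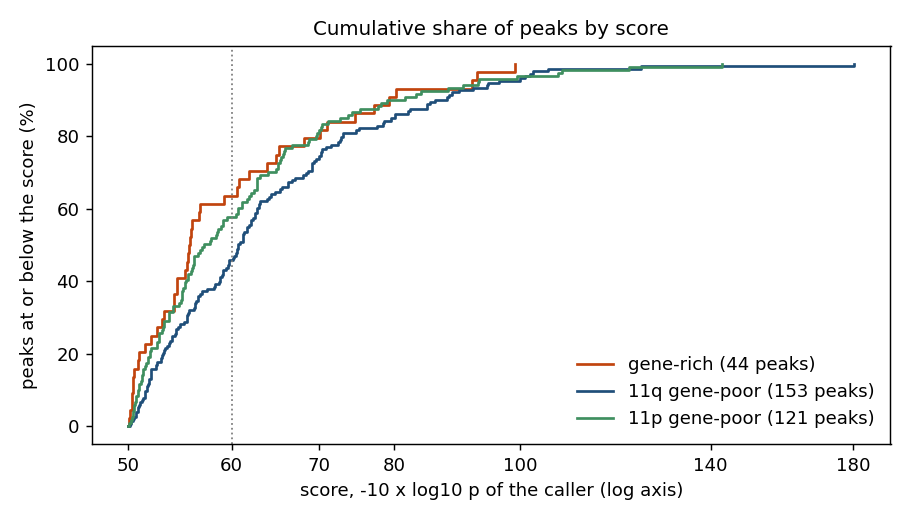
Cumulative share of peaks (vertical axis, percent) at or below each score (horizontal axis, log scale) in the gene-rich, long arm gene-poor and short arm gene-poor segments, with a dotted line at 60. The gene-rich line rises first and ends at 99.10, while the long arm gene-poor line rises last and ends at 180.43.

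In the whole list, 45.7% of peaks scored 60 or more. The share was 36.4% in the gene-rich segment (16 of 44 peaks, Wilson 95% interval 23.8 to 51.1), 54.2% in the long arm gene-poor segment (83 of 153, 95% interval 46.3 to 61.9) and 42.1% in the short arm gene-poor segment (51 of 121, 95% interval 33.7 to 51.1). Only the long arm gene-poor interval lay above the share of the list. A score of at least 100, which 2.92% of the list reached, was found in 6 long arm gene-poor and 4 short arm gene-poor peaks, and in 0 of 44 gene-rich peaks, which allows a share of up to 6.82%. That limit lies above the share of the list, so a lack of strong peaks in the gene-rich segment was not detectable with 44 peaks.

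Density was then computed by score. Among peaks with a score of at least 60, the gene-rich segment carried 1.33 per Mb (95% interval 0.762 to 2.17) and the long arm gene-poor segment 3.46 per Mb (95% interval 2.75 to 4.29), a ratio of 0.386 (95% interval 0.211 to 0.664). Among peaks below 60 the ratio was 0.800 (95% interval 0.497 to 1.26). For peaks at or above the median score of the list, the ratio was 0.370. The short arm gene-poor segment, which did not stand apart from the long arm one over all peaks, had 0.641 times its density of peaks with a score of at least 60 (95% interval 0.443 to 0.920) and 1.04 times its density of peaks below 60 (95% interval 0.738 to 1.47). Between the gene-rich and the short arm gene-poor segment the ratio was 0.601 for peaks with a score of at least 60 (95% interval 0.320 to 1.07) and 0.767 for peaks below 60 (95% interval 0.476 to 1.20), so that the interval, which ended just below 1 over all peaks, included 1 in both parts. In each of the 3 comparisons the ratio was farther from 1 among the stronger peaks, but the intervals of the stronger and weaker peaks overlapped. Median scores of single windows ranged from 50.07 to 70.10 in the gene-rich segment and from 54.03 to 84.78 in the long arm gene-poor segment. The median reached 60 in 2 of 12 gene-rich windows, in 15 of 24 long arm gene-poor windows and in 8 of 23 short arm gene-poor windows. Over the whole chromosome it did so in 55 of the 132 windows with a peak.

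The strongest gene-rich peak, of 916 bp at chr11:71651663-71652578, scored 99.10. The next in that segment, of 1204 bp at chr11:65452093-65453296, scored 92.66, and the third, of 896 bp at chr11:69501381-69502276, scored 91.84. All of them stayed below the leading peaks of the gene-poor segments. On the long arm, a peak of 1567 bp at chr11:90321883-90323449 scored 180.43, the highest on the chromosome. It lay in the fullest window of its segment. A peak of 2271 bp at chr11:94059762-94062032, the widest on the chromosome, scored 123.70, and a peak of 1342 bp at chr11:84466562-84467903 scored 105.01. On the short arm, a peak of 823 bp at chr11:31973496-31974318 scored 142.87, the second highest on the chromosome. A peak of only 447 bp at chr11:27359154-27359600, the narrowest on the chromosome, scored 121.24 and lay in the fullest window of its segment. The third, of 1201 bp at chr11:21799616-21800816, scored 107.69. The 4 highest scores on chromosome 11 all belonged to the gene-poor segments. The next 4 scores, 117.34, 114.39, 114.36 and 108.37, all lay outside the gene-poor and gene-rich segments. A highest score tends to rise with the number of peaks, and the gene-rich segment held fewer peaks than either gene-poor segment. The leading scores therefore do not show a difference in strength between the segments. No replicate was at hand to give the error of a single score.

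Widths were compared in the same way. The median width was 1023 bp in the gene-rich segment (95% interval 964 to 1047), 958 bp in the long arm gene-poor segment (95% interval 928 to 996) and 978 bp in the short arm gene-poor segment (95% interval 946 to 1001). The gene-rich median exceeded the others by 64.5 bp (95% interval -5.26 to 103) and 44.5 bp (95% interval -18.4 to 84.8), and both intervals included 0. The middle 50% of widths ran from 903 to 1090 bp in the gene-rich, from 841 to 1097 bp in the long arm gene-poor and from 866 to 1070 bp in the short arm gene-poor segment. The extremes were 782 and 1584 bp, 556 and 2271 bp, and 447 and 2005 bp, respectively, and a range widens with the number of peaks. The widest gene-rich peak, at chr11:68271561-68273144, scored 77.16. The widest short arm gene-poor peak, at chr11:42757665-42759669, measured 2005 bp and scored 83.82.

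The narrowest peaks were counted next. A width under 700 bp was found in 7.94% of the whole list, in 12 of 153 long arm gene-poor peaks (7.84%, Wilson 95% interval 4.54 to 13.2) and in 6 of 121 short arm gene-poor peaks (4.96%, 95% interval 2.29 to 10.4). In the gene-rich segment 0 of 44 peaks were so narrow, which allows a share of up to 6.82%. That limit lies below the share of the list, whereas the Wilson interval of the same share reached 8.03%, just above it. The limits disagree, so 44 peaks leave it undecided whether narrow peaks were fewer in the gene-rich segment. A width of 1500 bp or more, found in 5.23% of the list, occurred in 1 gene-rich, 8 long arm gene-poor and 3 short arm gene-poor peaks. A width of 1000 bp or more was found in 39.1% of the list, in 59.1% of gene-rich peaks (26 of 44, 95% interval 44.4 to 72.3), in 41.2% of long arm gene-poor peaks (63 of 153, 95% interval 33.7 to 49.1) and in 41.3% of short arm gene-poor peaks (50 of 121, 95% interval 32.9 to 50.2).

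**Figure D4:**
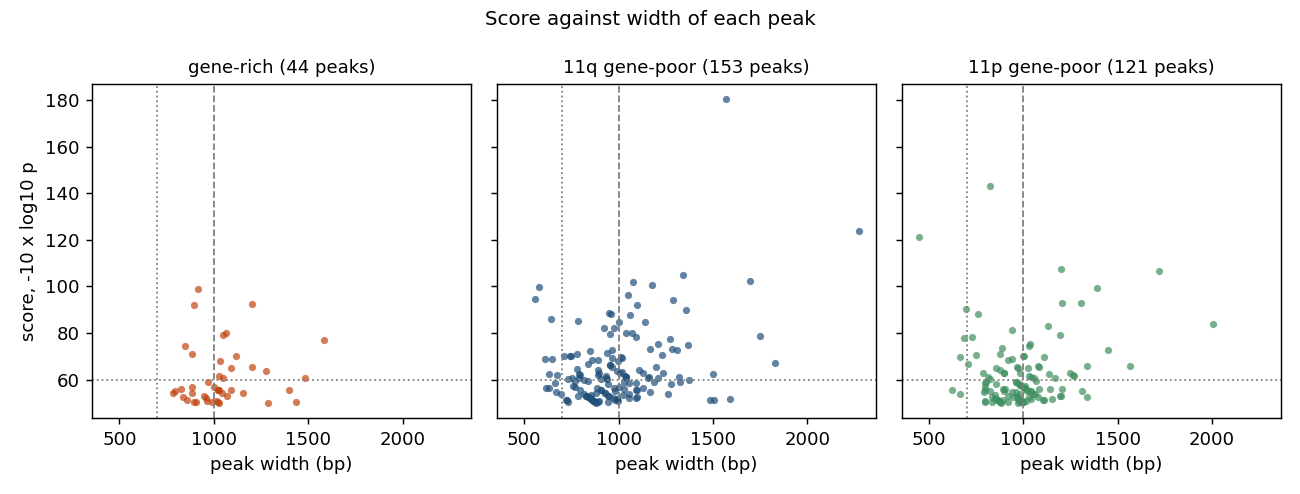
Score (vertical axis) against width in bp (horizontal axis) of each peak in the gene-rich, long arm gene-poor and short arm gene-poor segments, with lines at 700 and 1000 bp and at a score of 60. No gene-rich peak lies left of 700 bp, and the 10 peaks of the 3 segments with a score of at least 100 are all in the gene-poor panels.

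Density was also computed by width. Peaks narrower than 1000 bp were 0.400 times as dense in the gene-rich as in the long arm gene-poor segment (18 against 90 peaks, 95% interval 0.227 to 0.669) and 0.486 times as dense as in the short arm gene-poor segment (95% interval 0.273 to 0.824). For peaks of 1000 bp or more these ratios were 0.825 (95% interval 0.502 to 1.32) and 0.997 (95% interval 0.596 to 1.63). This limit of 1000 bp was set with the widths already known, and the intervals of the narrower and wider peaks overlapped in both comparisons. In peaks of 700 to under 1200 bp, which made up 81.8% of the gene-rich, 75.8% of the long arm gene-poor and 82.6% of the short arm gene-poor peaks, the median score was 55.5, 59.98 and 56.1, respectively. The gene-rich and long arm gene-poor medians thus differed by -4.46 within this range (95% interval -7.35 to 0.582), near the -5.07 found over all widths. The gene-rich and short arm gene-poor medians differed by only -0.57 within it (95% interval -3.97 to 3.34).

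By arm, the short arm carried 238 peaks at 4.71 per Mb (95% interval 4.13 to 5.35) and the long arm 407 peaks at 5.11 per Mb (95% interval 4.63 to 5.64), over their spans on either side of the longest interval without a peak. That interval, of 4.07 Mb from 50776059 to 54846338, lay around the centromere and included the 3 empty windows of the chromosome. The ratio of short to long arm density was 0.920 (95% interval 0.781 to 1.08). The median score was 56.7 on the short arm (95% interval 55.5 to 58.9) and 59.7 on the long arm (95% interval 58.7 to 61.3), a difference of -3.07 (95% interval -5.04 to -0.640). Among peaks with a score of at least 60, the short arm had 0.779 times the density of the long arm (95% interval 0.606 to 0.996).

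The copy number of these segments in MDA-MB-231 cells, their mappability and their base composition, each of which can change the number of peaks called per Mb, are not recorded in the list, and their part in the differences was not tested.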

How the data were processed

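ChIP and input DNA from MDA-MB-231 cells were sequenced by the authors. Per the labels, reads were processed with Bowtie2 2.1.0 and hg19. The authors deposited 1 MACS peak list (p-value limit 1e-05, model fold limits 10 and 30, per the name of the list). The MACS version and the handling of duplicates and artefact-prone regions are not given in the sources used here. The deposited score was read as -10 x log10 p, because its minimum was exactly 50. A design text on RNA samples, attached to the series, was not used.

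Width was end minus deposited start, and 1 was added to starts for printing. Densities were given exact Poisson intervals, density ratios exact conditional binomial intervals, shares Wilson intervals, and medians order-statistic intervals, which were combined by the square-and-add method for differences of medians, all at 95%. The count limit for 0 was 3. No test across samples was possible, and no p-value is given. Functions were tested on simulated data. Calculations ran in Python 3.11.15 with pandas 2.3.3, scipy 1.17.1, numpy 2.4.6 and, for plots, matplotlib 3.10.9. No read numbers come with the list, so the depth of the libraries is not known.

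The segments and limits were chosen with earlier results of these data known. Named items were the 3 highest scoring peaks, the widest peak and the 3 fullest windows of each segment. Sparsest windows, narrowest peaks and edge windows were added after the values had been seen. RefSeq (GRCh38.p14) was used for gene names and order only, and all 62 listed genes matched. Gene bodies, start sites and the brachyury half-site in peaks were not analysed here, as they need an annotation and genome in hg19.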

Additional observations from a re-analysis of the deposited data

How the results depend on the processing

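In all, 48 recalculations of 12 results were made, of which 42 stayed within the 95% interval of the value reported. Some of these 42 could not differ from the value reported. Leaving out windows without a peak changed nothing, because the segments held no such window. The arm spans already excluded the long interval without a peak, so leaving it out again changed nothing. Merging peaks could not alter gene-rich against short arm gene-poor values, because neither segment held peaks less than 1 kb apart. The count of 42 therefore overstates how far the results were tested. The density ratio of gene-rich to long arm gene-poor windows moved from 0.575 to 0.370 with peaks at or above the list median score and to 0.386 with peaks scoring at least 60. With the same limits, the ratio of short arm to long arm gene-poor density moved from 0.825 to 0.624 and 0.641. The ratio of short to long arm density moved from 0.920 to 0.733 with peaks at or above the list median score. The cause was not tested. In windows of 0.5 Mb, 45.8% of gene-rich windows lay below the short arm gene-poor median, against 83.3% in windows of 1 Mb. Windows equal to the median were not counted as below it, so these shares do not show a change of direction. Merging peaks less than 1 kb apart, trimming 2 Mb from segment ends, placing peaks by their start, and leaving out the fullest gene-rich window (added after seeing the data) changed the direction of no density ratio. In windows of 2 Mb the last short arm gene-poor window was left out. No paired analysis was possible because each library was made once. The results that need a gene annotation or genome in hg19 were not run. Unknown depth and the lack of replicates limit every score, and 44 gene-rich peaks limit each statement on that segment.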

Other observations

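Outside the 3 segments, the fullest window of chromosome 11 ran from 124 to 125 Mb and held 12 peaks, with a median score of 61.8. On the same arm, the longest interval without a peak away from the centromere measured 1.71 Mb, from 115246019 to 116952360. On the short arm, intervals of 1.28 Mb from 2103804 and of 1.07 Mb from 7894456 held no peak.

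Some scores recur in the list, and the most frequent values among scores of at least 60 were counted. Within 0.01 of 77.78, 69.82 or 62.13 lay 225 of the 10342 peaks, 207 of them narrower than 700 bp. On chromosome 11 there were 14 such peaks among 645, 12 of them narrower than 700 bp. Of these 14, 6 were among the 148 peaks from 102 Mb to the end of the long arm. There were 2 among the 153 long arm gene-poor peaks, 2 among the 121 short arm gene-poor peaks and 0 among the 44 gene-rich peaks. Such peaks were rare in the whole list, so 0 of 44 is not read as a lack.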
